A study of Homo sapiens with 8 samples.

Results

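The mRNA levels of 9 genes of pericellular proteolysis were followed in 3 human cancer cell lines, before and after transfection of a miRNA or an siRNA. The genes were 7 matrix metalloproteinases (MMP1, MMP2, MMP7, MMP9, MMP10, MMP13 and MMP14), the urokinase-type plasminogen activator PLAU and its receptor PLAUR. They were chosen by name and found on the array through its gene names, as 9 of 43317 genes and 10 of 58201 gene probes. The lines were FaDu, from a hypopharyngeal squamous cell carcinoma, PC3, from prostate cancer, and PANC-1, from pancreatic cancer. FaDu cells received either strand of miR-99a, miR-99a-5p or miR-99a-3p. PC3 cells received either strand of miR-150 (miR-150-5p or miR-150-3p), miR-99a-3p or miR-100-3p. PANC-1 cells received 1 of 2 siRNAs against the forkhead factor FOXQ1, called si-FOXQ1-1 and si-FOXQ1-2. Transfection was by Lipofectamine RNAiMAX in every condition, and the control, called mock, was described in the labels as having had no transfection. Each condition was hybridised on 1 Agilent array of 60-base probes, with the mock cells of the same line in the green dye Cy3 and the transfected cells in the red dye Cy5.

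Matrix metalloproteinases are zinc-dependent endopeptidases that are made as inactive proenzymes, cut components of the extracellular matrix once activated, and are held in check by the tissue inhibitors of metalloproteinases (TIMPs). Urokinase is a serine protease that turns plasminogen into plasmin at the cell surface, where PLAUR binds it, and plasmin can in turn activate several of the proenzymes. In carcinomas these enzymes are known for their part in invasion and in the release of growth factors from the matrix, and many of their genes are induced through AP-1 and ETS transcription factors.

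The transfected RNAs set the comparisons, and the mature sequences found in RefSeq (GRCh38.p14) are printed 5′ to 3′ with the seed, bases 2 to 8, in capitals. They are shown because miR-99a-3p was given to both FaDu and PC3 cells. The sequence of miR-100-3p, given to PC3 cells, resembles it but has a different seed.
miR-99a-5p: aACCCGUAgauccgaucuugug
miR-99a-3p: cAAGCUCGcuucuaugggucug
miR-100-3p: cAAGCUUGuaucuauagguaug
Both strands of miR-99a come from 1 hairpin, at chr21:16539101-16539122 for miR-99a-5p and chr21:16539138-16539159 for miR-99a-3p on the plus strand, and miR-100-3p lies at chr11:122152240-122152261 on the minus strand. The sequences of miR-99a-3p and miR-100-3p were identical at 17 of 22 positions and at 6 of 7 seed positions, whereas the seed of miR-99a-5p was unrelated to either.

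A log2 ratio is the transfected over the mock signal of 1 array, and the value after ± is the error that the scanner software gave for that spot, which covers the measurement of the spot and not the spread between cultures. With 1 array per condition no ratio could be tested, and because no array had the dyes exchanged, an effect of the dye cannot be told apart from that of transfection. No array carried a control RNA, so in any ratio the effect of a miRNA or siRNA sequence cannot be told apart from that of transfection itself. Ratios above 1 or below -1 are counted as past the threshold. All 8 arrays lay on 1 slide, 19184 to 20919 genes per array were well above background in at least 1 channel, and no gene spot was saturated. FOXQ1 itself had a log2 ratio of -2.16 ± 0.29 with si-FOXQ1-1 and -2.12 ± 0.28 with si-FOXQ1-2. The 5 squamous markers (KRT5, KRT6A, KRT14, TP63 and DSG3) were above background in all FaDu mock channels. Above background were KLK2 and HOXB13, but not KLK3, in PC3 mock cells, and KRT7, KRT19 and SOX9, but not CFTR, in PANC-1 mock cells. The labels do not say whether mock channels of a line came from separate cultures. Over all genes, FaDu mocks 1 and 2 differed by a median of 0.08 on the log2 scale, PANC-1 mocks 1 and 2 by 0.07, and PC3 mocks 1 and 2 (the miR-150 arrays) and 3 and 4 (the miR-99a-3p and miR-100-3p arrays) by 0.06 to 0.07. Repeated spots of 1 array had a median SD of 0.05 to 0.06, so these close channels may hold the same RNA. PC3 mocks 1 and 2 differed from 3 and 4 by a median of 0.14.

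The lines differed in which of these enzymes they expressed before transfection. FaDu and PC3 mock cells shared high MMP1 and measurable MMP10 and MMP13, PANC-1 mock cells had MMP2 and neither MMP10 nor MMP13 above background, and PLAU was high in all 3. Levels are log2 Cy3 signals scaled between arrays and were compared for each gene between lines, never between genes, since every gene has its own probe. All 9 genes entered the limma fit, MMP2 only through PANC-1 cells and MMP10 and MMP13 only through FaDu and PC3 cells, so those 3 had to differ from the dim lines. Of the 8 genes measured in both PC3 and FaDu cells, 4 passed an adjusted p of 0.05 in limma, against 77% of all 21496 genes tested. Of the 6 genes measured in both PC3 and PANC-1 cells, 5 passed, against 69.5% of all genes, and of the 6 measured in both FaDu and PANC-1 cells, 4 passed, against 71.5%. The shares over all genes also include genes dim in 1 of the lines, so the sets are not alike. Over all 9 members, 4 passed between PC3 and FaDu, 8 between PC3 and PANC-1 and 7 between FaDu and PANC-1 cells. The counts against PANC-1 cells include the 3 genes that had to differ. As mock channels of a line may be the same RNA, a second adjusted p follows each call, from a fit chosen after the data were seen in which close channels were averaged. That fit has 2 PC3 values and 1 for each other line, whose spread is assumed to be that of PC3.

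**Figure D1:**
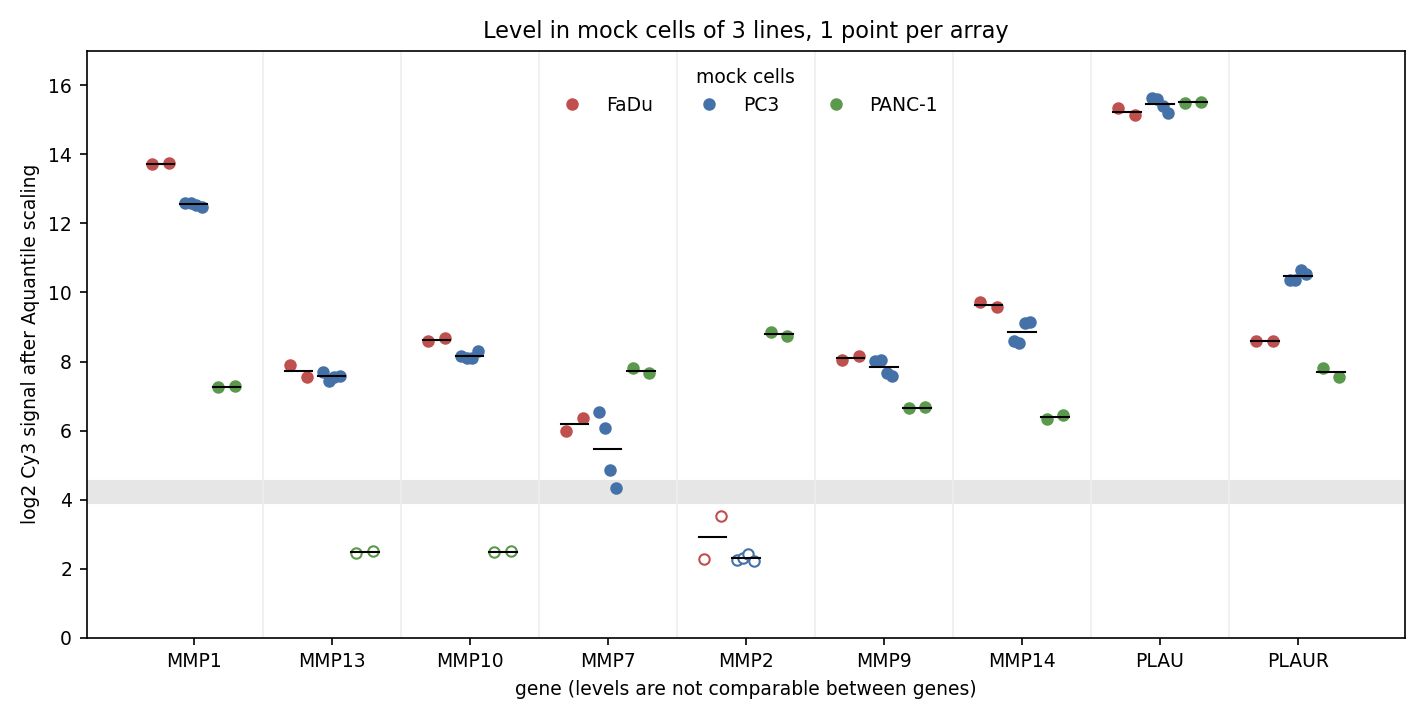
Level of the 9 genes in mock FaDu, PC3 and PANC-1 cells. The vertical axis is the log2 Cy3 signal after scaling between arrays, points are single arrays, black lines are means, open points mark a gene dim on every array of that line, and the grey band spans the lowest signals called well above background on the 8 arrays. MMP1 lay at 13.7 in FaDu, 12.5 to 12.6 in PC3 and 7.3 in PANC-1 cells, while the PLAU points of all 3 lines lay between 15.1 and 15.6.

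The collagenase MMP1 (probe at chr11:102660697-102660756 on hg19, minus strand), which cuts fibrillar collagens, showed the widest range among genes measured in all 3 lines. Its mock level was 13.72 and 13.75 in FaDu, 12.59, 12.58, 12.55 and 12.48 in PC3, and 7.27 and 7.28 in PANC-1 cells. The 3 lines did not overlap. MMP1 was 88.0-fold higher in FaDu than in PANC-1 cells (log2 difference 6.46 ± 0.06 SE, limma adjusted p = 6.5e-09, averaged channels 0.0011) and 38.7-fold higher in PC3 than in PANC-1 cells (5.28 ± 0.06, limma adjusted p = 4.3e-09, averaged channels 0.00065). Between FaDu and PC3 cells the difference was 2.27-fold, with FaDu higher (limma adjusted p = 1.6e-06, averaged channels 0.0060). MMP13 (chr11:102813773-102813832, minus strand), the other collagenase, had levels of 7.91 and 7.55 in FaDu and 7.68, 7.45, 7.56 and 7.60 in PC3 cells, which overlapped (limma adjusted p = 0.249, and 0.029 without FaDu mock 2). It was not well above background in PANC-1 cells, which puts it at least 10.2-fold higher in FaDu and at least 9.21-fold higher in PC3 cells, taking the lowest signal called above background as the PANC-1 level.

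The stromelysin MMP10 (chr11:102641405-102641464, minus strand), which degrades proteoglycans and fibronectin and activates other proenzymes, was at 8.60 and 8.67 in FaDu and between 8.09 and 8.31 in PC3 cells. The lines did not overlap, but the call for the 1.39-fold difference was lost when close channels were averaged (limma adjusted p = 0.00096 against 0.054). PANC-1 cells had no MMP10 above background, at least 19.2-fold below FaDu and at least 13.9-fold below PC3 cells. Matrilysin, MMP7 (chr11:102394029-102394088, minus strand), a small enzyme without the hemopexin domain, ran the other way. Its level was 7.80 and 7.68 in PANC-1, 5.996 and 6.371 in FaDu, and 6.53, 6.09, 4.87 and 4.34 in PC3 cells, the last of which was not above background. Among PC3 cells the mocks of the miR-150 arrays were the higher and those of the miR-99a-3p and miR-100-3p arrays the lower. MMP7 was 4.87-fold lower in PC3 than in PANC-1 cells (limma adjusted p = 0.012), and this call was lost with averaged channels (0.087) and without PANC-1 mock 1 or 2 (0.065 and 0.054). The 2.94-fold lower level in FaDu than in PANC-1 cells was not called (limma adjusted p = 0.081), except without PC3 mock 1 or 4 (0.044 and 0.038).

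The gelatinases, which cut denatured collagen and basement membrane collagen, had opposite distributions. MMP2 (chr16:55540518-55540577, plus strand) was measured in PANC-1 cells alone, at 8.85 and 8.75, and was dim in all 6 other mock channels. PANC-1 cells were at least 20.4-fold above FaDu and at least 28.7-fold above PC3 cells. MMP9 (chr20:44645121-44645180, plus strand) was at 8.04 and 8.17 in FaDu, 8.03, 8.06, 7.66 and 7.59 in PC3, and 6.66 and 6.67 in PANC-1 cells. FaDu and PC3 cells overlapped (limma adjusted p = 0.136), and both lay above PANC-1 cells, by 2.72-fold for FaDu (limma adjusted p = 0.00026, averaged channels 0.021) and 2.24-fold for PC3 (limma adjusted p = 0.00038, averaged channels 0.025). MMP14 (chr14:23315791-23315850, plus strand), a membrane-bound enzyme that activates pro-MMP2 at the cell surface, was at 9.74 and 9.57 in FaDu, 8.61, 8.53, 9.12 and 9.14 in PC3, and 6.32 and 6.46 in PANC-1 cells. It was 9.58-fold higher in FaDu than in PANC-1 cells (limma adjusted p = 1.6e-05, averaged channels 0.0055) and 5.49-fold higher in PC3 than in PANC-1 cells (limma adjusted p = 3.3e-05, averaged channels 0.0075). The 1.74-fold difference between FaDu and PC3 cells was called over all channels, but not over averaged ones or without FaDu mock 1 (limma adjusted p = 0.0083 against 0.082 and 0.057). The line with measurable MMP2 had the lowest MMP14 level of the 3.

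PLAU (chr10:75677050-75677109, plus strand) was at 15.33 and 15.14 in FaDu, 15.64, 15.60, 15.41 and 15.19 in PC3, and 15.49 and 15.53 in PANC-1 cells. With all mocks no pair of lines passed the test (limma adjusted p = 0.173 for PC3 and FaDu, 0.030 without PC3 mock 4, 0.770 for PC3 and PANC-1, and 0.162 for FaDu and PANC-1), and the largest difference was -0.27 ± 0.16 SE, FaDu minus PANC-1. Its receptor PLAUR (chr19:44169498-44169557, minus strand), which anchors urokinase to the membrane, did differ, with PC3 the highest at 10.37, 10.38, 10.64 and 10.55, then FaDu at 8.61 and 8.60, then PANC-1 at 7.82 and 7.57. PC3 cells were 3.67-fold above FaDu (limma adjusted p = 4.5e-06, averaged channels 0.0033) and 6.91-fold above PANC-1 cells (limma adjusted p = 9.3e-07, averaged channels 0.0020), and FaDu cells were 1.88-fold above PANC-1 cells (limma adjusted p = 0.00051, averaged channels 0.029). Receptor mRNA therefore followed the order PC3, FaDu, PANC-1, with no overlap between neighbours, whereas no difference in PLAU passed the test with all mocks.

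After transfection, the highest ratios were found in FaDu cells with miR-99a-3p, and the array on which every measured member was below 0 was PC3 with miR-150-5p. Against the mean of the 4 PC3 mocks in place of that array's own, MMP7 (0.95) and MMP9 (0.16) were above 0 there. With miR-99a-3p in FaDu, 3 of 8 detected members passed the threshold, all upward (MMP10, MMP9 and PLAU), against 17.6% of all detected genes. With miR-150-5p in PC3, 3 of 8 passed, all downward (MMP13, MMP1 and MMP14), against 5.16%. With miR-150-3p in PC3, 3 of 8 passed, all upward (MMP13, MMP9 and MMP7), against 9.36%. Against the mean of the 4 PC3 mocks PLAUR also passed there, downward, at -1.07. With miR-99a-3p in PC3, 1 of 8 passed, downward (PLAU), against 11.6%, and with miR-99a-5p in FaDu 1 of 8, downward (MMP7), against 5.72%. The last of these was dim in the transfected channel, where the processed signals put MMP7 at least 1.35-fold lower. With normexp and loess its ratio was -0.34, a smaller difference. None of 7 detected members passed with miR-100-3p in PC3 (4.33% of all genes), si-FOXQ1-1 in PANC-1 (4.21%) or si-FOXQ1-2 in PANC-1 (3.7%). Members are few and were chosen by name, so these shares are descriptions of 1 array each.

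**Figure D2:**
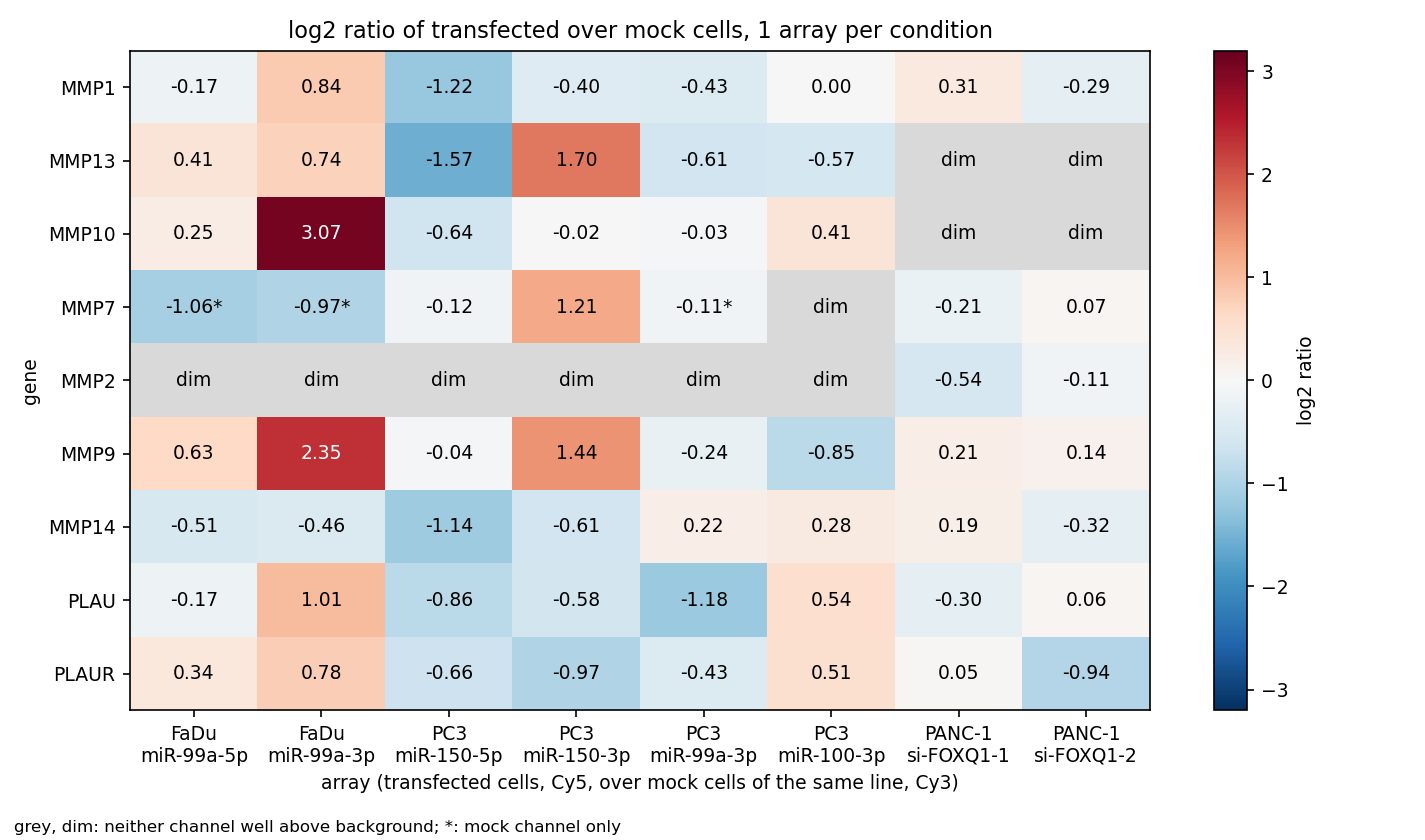
Log2 ratio of transfected over mock cells for each gene (vertical axis) on each array (horizontal axis). Red is higher and blue lower in the transfected cells, grey cells had neither channel well above background, and an asterisk marks a gene dim in the transfected channel. MMP10 and MMP9 under miR-99a-3p in FaDu stand at 3.07 and 2.35, and the column of miR-150-5p in PC3 holds no value above 0.

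MMP1 was printed at 10 spots per array, which gives it a spread that the other members lack. In FaDu cells its ratio was -0.17 with miR-99a-5p but 0.84 with miR-99a-3p. In PC3 cells it was -1.22 and -0.40 with the 5p and 3p strands of miR-150, -0.43 with miR-99a-3p and 0.00 with miR-100-3p. The PANC-1 arrays gave 0.31 with si-FOXQ1-1 and -0.29 with si-FOXQ1-2. The spots of 1 array had an SD of 0.04 to 0.07 in FaDu and PC3 cells and of 0.12 and 0.27 in PANC-1 cells, where the signal was low. The lowest value, with miR-150-5p, was a signal of 5956 in mock and 2550 in transfected cells, 2.34-fold lower, and ranked 63rd from the lowest of 17629 genes measured in both channels. The highest, with miR-99a-3p in FaDu, was a signal of 17206 in mock and 30898 in transfected cells.

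**Figure D3:**
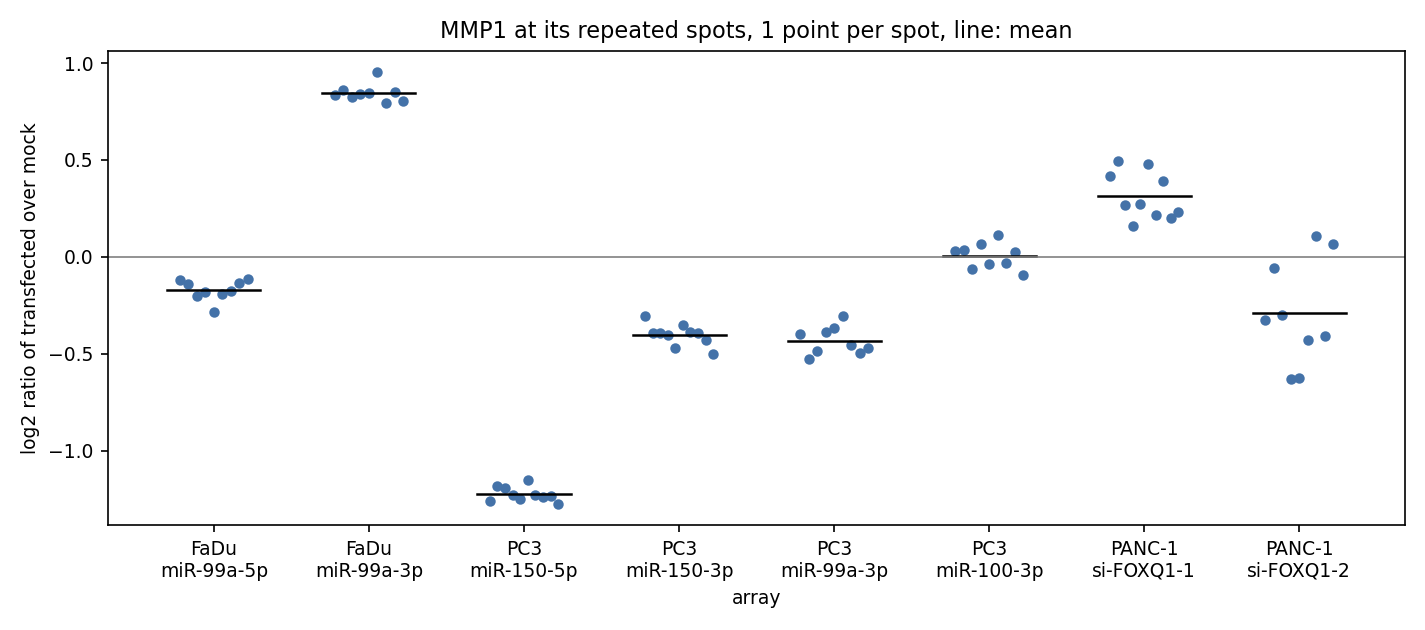
MMP1 log2 ratio of transfected over mock at each of its spots (points) on the 8 arrays, with the mean as a line. Spots with an outlier flag are left out, so 9 or 10 remain per array. The spots with miR-150-5p in PC3 lie around -1.22 and those with miR-99a-3p in FaDu around 0.84, clear of all other arrays, while the PANC-1 spots are spread most.

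MMP13 had ratios of opposite sign under the strands of miR-150. Its signal went from 200 to 67.5 with miR-150-5p (log2 ratio -1.57 ± 0.27, the 17th lowest of 17629 genes) and from 214 to 695 with miR-150-3p (1.70 ± 0.26, the 64th highest of 17605 genes). The transfected signal lay below mock on the first array and above it on the second, and the ratios differed by 3.26 ± 0.37. Under another background correction and normalization, normexp with loess, the miR-150-5p value was -0.96 and no longer past the threshold. The remaining MMP13 ratios were 0.41 with the 5p and 0.74 with the 3p strand of miR-99a in FaDu cells, and -0.61 with miR-99a-3p and -0.57 with miR-100-3p in PC3 cells. Both FaDu values were above 0 and both of these PC3 values below it. With normexp and loess the miR-100-3p value was -0.29.

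MMP10 gave the highest ratio of all members. In FaDu cells with miR-99a-3p its signal was 503.8 in mock and 4237 in transfected cells, 8.41-fold higher (log2 ratio 3.07 ± 0.35), the 14th highest of 16482 genes. With miR-99a-5p in the same line the signal was 286 in mock and 339 in transfected cells (0.25 ± 0.21). In PC3 cells the ratios were -0.64 and -0.02 with the 5p and 3p strands of miR-150, -0.03 with miR-99a-3p and 0.41 with miR-100-3p. In PANC-1 cells neither channel was above background. The large value was therefore found on 1 array of 6. The promoter stretch of MMP10 from RefSeq (GRCh38.p14, chr11:102780649-102780708, minus strand) is shown because it carries the classical elements of an inducible metalloproteinase promoter close to the start, in capitals an AP-1 match to TGANTCA 67 bases and a TATA box match to TATAAA 31 bases before the start. MMP7 and MMP10 were measured together in both channels on the miR-150 arrays alone, so their ratios can hardly be compared. The stretch of MMP7 (chr11:102530768-102530827, minus strand) carries the same pair of matches 67 and 30 bases before the start.
MMP10: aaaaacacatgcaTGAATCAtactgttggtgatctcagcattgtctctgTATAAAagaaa
MMP7: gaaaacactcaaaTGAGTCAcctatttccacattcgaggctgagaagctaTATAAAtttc
Searched on both strands, TGANTCA was present in 7.71% and TATAAA in 11.5% of 35116 promoter windows of the same length, and the matches shown do not overlap. A match describes these letters and says nothing of binding in these cells.

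MMP7 was measured in both channels on 4 arrays. In PC3 cells its signal went from 84.8 to 196 with miR-150-3p (1.21 ± 0.25) and from 88.5 to 81.5 with miR-150-5p (-0.12 ± 0.24). PANC-1 cells gave -0.21 ± 0.22 and 0.07 ± 0.21 with the siRNAs. In FaDu cells only the mock channel was above background. On the processed signals MMP7 was at least 1.35-fold lower with miR-99a-5p. With miR-99a-3p the signal went from 104 to 53.2, where the lowest transfected signal called above background was 46.2. The value there, 1.96-fold lower (-0.97 ± 0.34), is therefore the plain ratio and not a bound. Normexp with loess gave smaller differences than these values, with ratios of -0.34 and -0.32, so neither is a firm lower limit. The PC3 values depended on the reference. Against the mean of the 4 PC3 mocks, whose MMP7 levels differed as given above, the ratio with miR-150-5p was 0.95 and that with miR-150-3p was 1.84, whereas normexp with loess gave 0.76 for miR-150-3p.

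Of the gelatinases, MMP9 was measured on all 8 arrays. Its signal went from 359 to 1826 in FaDu cells with miR-99a-3p (2.35 ± 0.30, the 66th highest of 16482 genes) and from 325 to 884 in PC3 cells with miR-150-3p (1.44 ± 0.24, the 123rd highest of 17605 genes). In FaDu cells with miR-99a-5p the ratio was 0.63 ± 0.22. The other PC3 arrays gave -0.04, -0.24 and -0.85 with miR-150-5p, miR-99a-3p and miR-100-3p, and the PANC-1 arrays 0.21 and 0.14. Both FaDu values exceeded every PC3 value except that of miR-150-3p, which lay between them. Against the mean of the PC3 mocks the value with miR-100-3p was -1.10, past the threshold, but with normexp and loess it was -0.60. The FaDu value with miR-99a-3p was 2.00 with normexp and loess. MMP2, measured in PANC-1 cells alone, had ratios of -0.54 ± 0.21 with si-FOXQ1-1 and -0.11 ± 0.21 with si-FOXQ1-2, a difference of -0.43 ± 0.30.

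MMP14 was below mock on 5 of 8 arrays. Its signal went from 377 to 171 in PC3 cells with miR-150-5p (-1.14 ± 0.23, the 83rd lowest of 17629 genes), and the ratio with miR-150-3p was -0.61 ± 0.21. The FaDu arrays gave -0.51 ± 0.21 with miR-99a-5p and -0.46 ± 0.21 with miR-99a-3p, arrays on which MMP9, MMP10 and MMP13 lay above 0. The ratios with miR-99a-3p and miR-100-3p in PC3 cells were 0.22 and 0.28, and those in PANC-1 cells 0.19 and -0.32. The mock level of MMP14 was lower on the miR-150 arrays than on the other PC3 arrays, so that against the mean of all PC3 mocks the miR-150-5p value was -1.38 and the miR-100-3p value 0.57. With normexp and loess the miR-150-5p value was -0.96.

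PLAU took both directions under the same miRNA. In FaDu cells with miR-99a-3p its signal went from 47156 to 94796 (1.01 ± 0.22), and in PC3 cells with miR-99a-3p from 59657 to 26260 (-1.18 ± 0.23). With miR-99a-5p in FaDu the ratio was -0.17, and in PC3 cells it was -0.86 and -0.58 with the 5p and 3p strands of miR-150 and 0.54 with miR-100-3p. The siRNAs gave -0.30 and 0.06. A second PLAU probe (chr10:75674614-75674673), dimmer than the first, had the same sign on all 8 arrays, with 0.79 ± 0.22 for miR-99a-3p in FaDu, -0.87 ± 0.22 in PC3, and -0.76 and -0.61 for miR-150-5p and miR-150-3p. The FaDu value lay close to the threshold and was 0.90 with normexp and loess, 0.91 against the mean of the FaDu mocks and 0.90 as the mean of both probes.

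PLAUR had the same sign as PLAU on 5 of 8 arrays. In FaDu cells its ratio was 0.78 ± 0.22 with miR-99a-3p and 0.34 ± 0.21 with miR-99a-5p. In PC3 cells it was -0.66 ± 0.21 and -0.97 ± 0.22 with the 5p and 3p strands of miR-150, -0.43 ± 0.21 with miR-99a-3p and 0.51 ± 0.21 with miR-100-3p. The miR-150-3p value was a change in signal from 1621 to 829, and was -1.07 against the mean of the PC3 mocks. In PANC-1 cells the 2 siRNAs against FOXQ1 differed for this gene more than for any other member, with 0.05 ± 0.21 for si-FOXQ1-1 and -0.94 ± 0.25 for si-FOXQ1-2, the 86th lowest of 16577 genes. The FOXQ1 ratios of these arrays, given above, lay within their spot errors of each other, and the PLAUR ratios differed by 0.99 ± 0.33. With normexp and loess the si-FOXQ1-2 value of PLAUR was -0.45. A stretch of the PLAUR promoter (GRCh38.p14, chr19:43670330-43670369, minus strand) is printed for its AP-1 match, in capitals, 186 bases before the start.
PLAUR: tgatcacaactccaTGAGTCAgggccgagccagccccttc
The MMP14 window and both PLAU windows held neither TGANTCA nor TATAAA.

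The same miRNA in FaDu and PC3 cells, miR-99a-3p, gave ratios that differed by more than 2 combined spot errors for all 7 members measured on both arrays. FaDu minus PC3, the difference was 3.105 ± 0.41 for MMP10, 2.59 ± 0.37 for MMP9 and 2.19 ± 0.32 for PLAU. It was 1.35 ± 0.32 for MMP13, 1.28 ± 0.30 for MMP1 and 1.21 ± 0.30 for PLAUR, and only MMP14 ran the other way, at -0.68 ± 0.29. In PC3 cells 6 of these 7 were below 0, with a median of -0.43 beside 0.07 for all genes measured in both channels. In FaDu cells 6 of 7 were above 0, with a median of 0.84 beside 0.03 for all genes. The share of all genes that differed by more than 2 combined spot errors was not counted. With this miRNA 17.6% of detected genes in FaDu and 11.6% in PC3 cells passed the threshold. The count of 7 can therefore not be read as particular to these genes, and the comparison rests on 1 array per line.

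**Figure D4:**
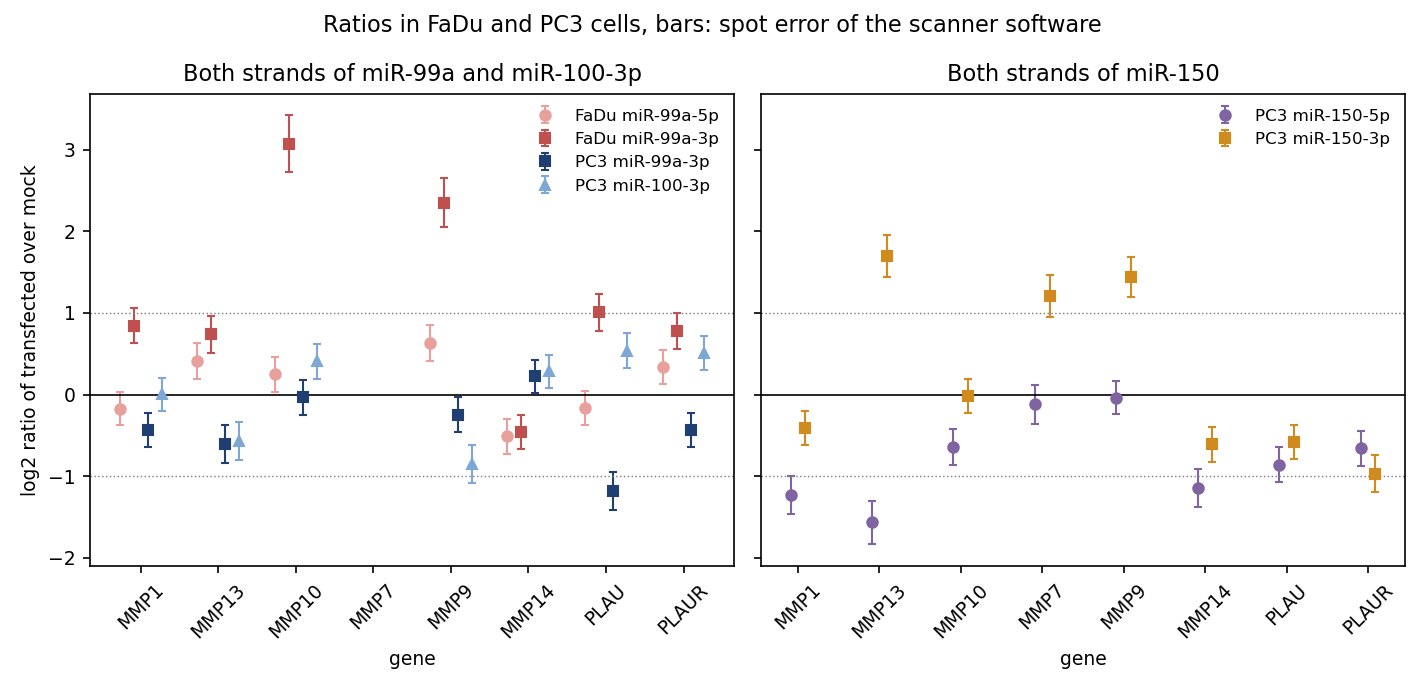
Log2 ratio of transfected over mock (vertical axis) by gene (horizontal axis) for members measured in both channels, left with miR-99a-5p, miR-99a-3p and miR-100-3p and right with the strands of miR-150. Bars are spot errors and dotted lines mark ratios of 1 and -1. The FaDu miR-99a-3p squares lie above the PC3 miR-99a-3p squares for every gene but MMP14, and MMP13 stands at -1.57 and 1.70 under the strands of miR-150.

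In FaDu cells the strands of miR-99a differed for some members and not others. The difference, miR-99a-3p minus miR-99a-5p, was 2.83 ± 0.41 for MMP10, 1.71 ± 0.37 for MMP9, 1.17 ± 0.30 for PLAU and 1.02 ± 0.30 for MMP1. It was 0.44 ± 0.30 for PLAUR, 0.33 ± 0.32 for MMP13 and 0.05 ± 0.30 for MMP14, within 2 combined errors. The median over the 7 members was 0.84 with miR-99a-3p and 0.25 with miR-99a-5p.

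In PC3 cells, miR-99a-3p and miR-100-3p, which share 6 of 7 seed positions, differed most for urokinase and its receptor. The difference, miR-99a-3p minus miR-100-3p, was -1.72 ± 0.31 for PLAU and -0.94 ± 0.30 for PLAUR. For MMP1, MMP9, MMP10, MMP13 and MMP14 it lay between -0.44 and 0.61, with combined errors of 0.29 to 0.33. The median over the 7 members was -0.43 with miR-99a-3p and 0.28 with miR-100-3p.

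The strands of miR-150 in PC3 cells differed for MMP13 as given above, and also for MMP9, by 1.48 ± 0.32 (miR-150-3p minus miR-150-5p), and MMP7, by 1.33 ± 0.35. MMP1 differed by 0.82 ± 0.31 and MMP10 by 0.62 ± 0.30. For MMP14, PLAU and PLAUR the differences were 0.53 ± 0.32, 0.27 ± 0.30 and -0.31 ± 0.31, and both strands gave ratios below 0 for each of them. The median over the 8 members was -0.76 with miR-150-5p, where 0 of 8 were above 0 against that array's own mock, and -0.21 with miR-150-3p.

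Other genes of matrix proteolysis were read from lists of 55 genes in all. In FaDu cells with miR-99a-3p, 5 of the 37 measured in both channels were above 1 and 5 below -1, where 13.2% of all genes so measured were past the threshold in either direction. Above were the stromelysin MMP3 (3.28 ± 0.37), the macrophage elastase MMP12 (1.61 ± 0.26), the tissue-type plasminogen activator PLAT (3.52 ± 0.39), the inhibitor TIMP2 (2.87 ± 0.34) and RECK, a membrane-anchored metalloproteinase inhibitor (1.06 ± 0.28). Below were TIMP4 (-2.30 ± 0.30), the proprotein convertase PCSK5 (-1.21 ± 0.23) and 3 AP-1 subunits, FOS (-2.06 ± 0.28), FOSB (-1.49 ± 0.26) and JUND (-1.21 ± 0.30). These AP-1 transcripts were low on the array where MMP10 and MMP9 were at their highest, and whether the values are connected was not tested. In PC3 cells with miR-99a-3p, 6 of 35 were above 1 and 0 below -1, against 8.18% of all genes past the threshold. They were MMP24 (1.43), MMP11 (1.24), MMP15 (1.01), RECK (1.55 ± 0.25), the proprotein convertase FURIN (1.14) and the collagen receptor MRC2 (1.08).

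With miR-150-5p in PC3 cells, 2 of 36 related genes were below -1 and 0 above 1, against 1.41% of all genes. They were PLAT (-1.14 ± 0.23), whose signal went from 6239 to 2831, and MRC2 (-1.12 ± 0.23). In FaDu cells PLAT stood at 1.66 ± 0.27 with miR-99a-5p. With miR-150-3p the AP-1 subunit FOSL1 went from 8454 to 2518 (-1.75 ± 0.26), the only 1 of 35 related genes past the threshold (4.91% of all genes) on the array where MMP13, MMP9 and MMP7 were above 1. With miR-99a-5p in FaDu cells 2 of 36 were above 1, PLAT and the inhibitor TIMP3 (1.18 ± 0.32), against 1.06% of all genes. On the PANC-1 arrays FOS (1.83 ± 0.37) and FOSB (1.76 ± 0.34) exceeded 1 with si-FOXQ1-1, both at low signals, as 2 of 33 related genes against 1.25% of all genes. None of 32 was past the threshold with si-FOXQ1-2, against 0.718%.

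Of the 5 members measured in both channels on all 8 arrays, each was set against 13242 other such genes by the root mean square difference of its 8 log2 ratios. The nearest to MMP1 were WDR92 (0.19), GNAZ (0.25) and FRMD4A (0.27), and the nearest to MMP14 were PISD, RANBP9 and BASP1 (0.29 each). PLAU was nearest to an unnamed probe (0.24), ATAD3C (0.29) and POLR3K (0.30), and PLAUR to STEAP1B (0.32), TCF7 (0.33) and KCNJ18 (0.34). MMP9 had the least close neighbours, an unnamed transcript (0.41), OAS3 (0.45) and TMEM19 (0.45). No member was among the 3 nearest genes of another member.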

How the data were processed

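The authors scanned 8 2-colour Agilent arrays and processed them with Feature Extraction 10.7.3.1, which subtracted background, normalized the dyes by linear and lowess steps and gave surrogate values to signals not above background. The deposited intensities are these processed Cy3 and Cy5 signals, without scaling across arrays. Its log10 ratio (red over green) and spot error were deposited too, and the value table of the series held identical ratios. The genome build of the array annotation is hg19.

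From these, log10 ratios were converted to log2, control spots and 81 to 178 flagged gene spots per array were left out, spots of a probe were averaged, and the brightest probe stood for a gene. Mock levels were processed Cy3 signals after Aquantile scaling, tested with limma 3.58.1 (R 4.3.3, lmFit and eBayes, Benjamini-Hochberg) over 21496 genes whose Cy3 signal was well above background on every array of at least 1 line. The limma step was tested on simulated data for PC3 minus FaDu. It recovered 65% of the log2 changes of 1 and 87% of those of 2, with 10 false calls. The simulated channels were independent, unlike the close mock channels of these arrays, so the test does not cover that feature. Bounds for dim signals used the higher of the lowest signal called above background and the dim probe's own. Where the probe's own was higher, the value is its plain ratio and not a bound. The number of arrays limits the precision, and p-values measure the spread between mock channels, which may be technical.

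Named are all 9 members, FOXQ1, related genes past a log2 ratio of 1 in both channels (at most 4 per list and array) and the 3 genes nearest to each member measured on all arrays. Members and lists were chosen with earlier results of these data known. Alternatives were normexp (offset 50) with loess, the series values, the mean over probes, flagged spots kept, other filters and thresholds, the mean of the line's mocks, other scalings of Cy3 (quantile, 75th percentile), and leaving out each mock. Python 3.11.15 with numpy 2.4.6 and pandas 2.3.3 was used otherwise. Of the members, MMP7, MMP10, MMP14, PLAU and PLAUR had promoter windows in the RefSeq table. Some genes of the marker and related lists are not reported here.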

Additional observations from a re-analysis of the deposited data

Results flagged for a closer look

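With miR-99a-3p, all 7 members measured on both arrays had a log2 ratio of one sign in FaDu and of the other sign in PC3 cells, with 1 array per line. FaDu minus PC3, the differences were 3.105 for MMP10, 1.28 for MMP1, 2.59 for MMP9, 1.35 for MMP13, 2.19 for PLAU and 1.21 for PLAUR, with FaDu above 0 and PC3 below. Some PC3 values lay near 0, with MMP10 at -0.03, MMP14 at 0.22 and MMP9 at -0.24, each with a spot error of 0.21. The sign in PC3 cells is therefore uncertain for these genes. The share of all genes with opposite signs on these arrays was not counted. For MMP14 the difference was -0.68, with FaDu below 0 and PC3 above. The difference between the lines was not tested for any of them, since neither line has a second array of this miRNA. The PC3 mock levels of some members, MMP7 and MMP14 most, split by array pair. MMP7 was at 6.53 and 6.09 on the miR-150 arrays and at 4.87 and 4.34 on the other PC3 arrays. MMP14 was at 8.61 and 8.53 on the former and at 9.12 and 9.14 on the latter.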

How the results depend on the processing

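Many of the 305 recalculated member ratios could not move. The series values were identical, the mean over probes could change PLAU alone, and keeping flagged spots could change MMP1 alone. All moves past the spot error came with normexp and loess (9) or against the mean of the line's mocks (9). Of the 305, 287 moved by less than their spot error, 18 by more, and 4 changed sign. The last were, against the mean of the PC3 mocks, MMP7 (0.95) and MMP9 (0.16) with miR-150-5p and MMP1 with miR-100-3p (-0.069), which was also at -0.0086 with normexp and loess. The number of members past the threshold was 0 with miR-99a-5p in FaDu with both channels above background or with normexp and loess, and 1 with miR-150-5p in PC3 with normexp and loess. Against the mean of the line's mocks it was 1 with miR-100-3p in PC3 (MMP9) and 1 with si-FOXQ1-2 in PANC-1 (PLAUR). It was 4 with miR-150-3p in PC3 against that mean, where PLAUR was at -1.07, and 2 there with normexp and loess. With miR-99a-3p in FaDu it was 2 with normexp and loess, with the mean over probes or against the mean of the mocks. At a log2 threshold of 0.58 it was 7 (miR-99a-3p) and 2 (miR-99a-5p) in FaDu, 6 with each strand of miR-150, 2 with miR-99a-3p and 1 with miR-100-3p in PC3, and 1 with si-FOXQ1-2 in PANC-1. At a threshold of 2 it was 0 on 4 of the arrays where it had been 1 or 3 (miR-99a-5p in FaDu, and miR-99a-3p and both strands of miR-150 in PC3). The cause was not tested.

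Between mock lines, differences that had not been called changed sign in 5 cases. With the mean over both probes PLAU was at -0.078 (PC3 minus FaDu) and 0.0187 (FaDu minus PANC-1). Without single mocks the PC3 minus FaDu difference ranged from -0.33 to 0.027 for MMP13 and from -1.23 to 0.029 for MMP2, dim in both lines, and the PC3 minus PANC-1 difference of PLAU from -0.11 to 0.041. MMP2, dim in both, was called lower in PC3 than in FaDu without FaDu mock 1 (limma adjusted p = 0.00013) and with close channels averaged (0.029). With normexp, loess and Aquantile, 3 differences were called beyond those of the report, MMP2 and MMP9 between PC3 and FaDu (0.015 and 0.047) and MMP7 between FaDu and PANC-1 (0.0018), and with 75th percentile scaling 1, MMP2 between PC3 and FaDu (0.0092). No paired analysis was possible because no condition was replicated. The depth of an array is its signal over background, which leaves MMP2 without a ratio outside PANC-1 cells and MMP10 and MMP13 without one inside them.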
